A study of Homo sapiens with 6 samples.

Results

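Described here are 7 genes of chromosome segregation: the kinases AURKB and PLK1, the factor FOXM1, the outer kinetochore subunits SKA1 and SKA3, the kinesin KIF18B and the inner kinetochore protein CENPX. They were taken by name from the deposited table, where all 7 have a row among 1630 listed genes. Chromosome segregation depends on kinases that time the events of mitosis and on the kinetochore, the protein assembly that ties each centromere to spindle microtubules. Transcripts for much of this machinery are low early in the cell cycle and high as cells approach mitosis, under the transcription factor FOXM1 and the MuvB complexes.

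The cells were U87MG, a human glioblastoma line in long use, and their RNA was sequenced in 2 groups of 3 libraries. The shCREPT cells carried a short hairpin RNA against CREPT, the product of RPRD1B that binds the tail of RNA polymerase II, and the shControl cells carried a control hairpin. The labels give shCREPT or shControl with a replicate number. They do not say how many hairpins were used, or whether the cells were a pool or a clone. No drug, time point or other allele is given for either group.

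Every listed gene is marked significant in the authors' deposited table, 657 up and 973 down, with a smallest absolute log2 fold of 1.0009. Absence of a gene from the table therefore does not show that the gene was unchanged. RPRD1B has no row, so the knockdown itself was not checked here. The listed values summed to between 31893.69 and 33036.33 in shCREPT libraries and to between 32475.69 and 33330.8 in shControl libraries, and the reads behind them are unknown. MT-RNR1, a ribosomal RNA of mitochondria, had the top value in each library, with 18.6 to 20.9% of the listed sum in shCREPT libraries and 9.35 to 10.5% in shControl libraries. Of 11 glial markers 3 had a row (GFAP, S100B and SLC1A3), and their summed values were 72.53 to 88.86 in shCREPT libraries and 498.32 to 528.49 in shControl libraries. The 2 listed endothelial markers of 6 summed to 11.64 to 13.66 in shCREPT libraries and 43.28 to 45.26 in shControl libraries. COL1A2, the 1 listed gene of 7 fibroblast and pericyte markers, was at 431.57 to 492.37 in shCREPT libraries and 1084.21 to 1099.05 in shControl libraries. None of 10 microglia and macrophage markers and none of 8 T cell markers had a row. The part of these differences in the results below was not tested.

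All 7 genes rose in shCREPT cells, by between 2.05-fold (KIF18B) and 2.68-fold (AURKB) in the mean value. Their groups did not overlap for any of the 7. Groups failed to overlap in that direction in 40.2% of the 1184 tested genes, and in either direction in 96.8%. In a limma fit over these 1184 genes on log2(value + 1), all 7 passed a Benjamini-Hochberg adjusted p of 0.05 as higher, as did 40.6% of all tested genes; 57.3% passed as lower and 97.9% in either direction. The table holds only genes the authors had selected for this contrast, so the count of 7 follows largely from the choice of rows. No listed gene has an absolute log2 fold under 1.0009 in the authors' deposited table. The 7 were also chosen with earlier results of these data known. Their direction and a rise of at least that size are thus not separate findings. The values below describe the size and spread of each change. In bulk RNA, more cells near mitosis and more of each transcript per cell cannot be told apart.

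AURKB encodes Aurora B, the catalytic subunit of the chromosomal passenger complex, which corrects faulty attachments of kinetochores to microtubules. It had 184.91, 181.4 and 185.83 normalized units in the shCREPT libraries, against 69.58, 70.48 and 66.19 in the shControl libraries. Both groups were tight, with a coefficient of variation of 1.27% in shCREPT and 3.29% in shControl. The lowest shCREPT value was 2.57 times the highest shControl value. The change was 1.41 ± 0.07 on the log2(value + 1) scale (SE, n = 3 each; limma adjusted p = 9.28e-06), the largest of the 7.

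PLK1 encodes polo-like kinase, which acts in mitotic entry, centrosome maturation and kinetochore attachment. Its values were 148.01, 149.17 and 147.59 in shCREPT cells, against 62.12, 68.74 and 75.64 in shControl cells. The shCREPT libraries differed from each other by a coefficient of variation of 0.552%, while the shControl libraries spread over 9.82%. PLK1 averaged 148.3 ± 0.818 in shCREPT cells and 68.8 ± 6.76 in shControl cells (SD, n = 3 each), a 2.15-fold rise, or 1.10 ± 0.09 in log2 units (SE; adjusted p = 4.46e-05 by limma).

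FOXM1 encodes the forkhead factor that drives many transcripts of late interphase and mitosis, those of AURKB and PLK1 among its known targets. FOXM1 was at 120.6, 126.34 and 125.16 in shCREPT cells, against 52.27, 61.8 and 66.06 in shControl cells. As with PLK1, the spread lay mostly in the shControl libraries, where replicate 1 deviated from the group mean by -12.9%. The mean rose 2.07-fold, or 1.04 ± 0.11 in log2 units (SE, n = 3 each; adjusted p = 9.43e-05 by limma).

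SKA1 and SKA3 encode subunits of the Ska complex, which holds kinetochores on the ends of shortening microtubules. SKA1 was at 13.36, 15.09 and 14.17 in shCREPT cells, against 6.29, 5.72 and 5.95 in shControl cells. SKA3 was at 23.74, 23.04 and 23.8 in shCREPT cells, against 10.2, 10.47 and 9.66 in shControl cells. The subunits rose by a like amount, 2.37-fold for SKA1 and 2.33-fold for SKA3, with log2 changes of 1.12 ± 0.08 and 1.14 ± 0.08 (SE, n = 3 each; limma adjusted p = 2.69e-05 and 1.74e-05). SKA2, which encodes the remaining subunit, has no row.

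KIF18B encodes a kinesin that works at the plus ends of astral microtubules and helps to position the spindle. It was at 61.7, 54.96 and 52.33 in shCREPT cells, against 25.88, 26.66 and 29.98 in shControl cells. It had the smallest separation of the 7, the lowest shCREPT value being 1.75 times the highest shControl value. Its log2 change was 1.01 ± 0.10 (SE, n = 3 each; limma adjusted p = 9.09e-05). In the authors' deposited table its log2 fold of 1.01 stood close to the smallest listed, and 2.28% of the 657 genes marked up had a smaller one.

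CENPX encodes a small histone-fold protein of the inner kinetochore that pairs with CENPS at the centromere and also serves in the Fanconi anemia core complex of DNA repair. CENPX was at 140.43, 151.41 and 154.31 in shCREPT cells, against 76.26, 70.6 and 59.29 in shControl cells. Its shControl spread was the widest of the 7, at a coefficient of variation of 12.6%. The mean rose 2.16-fold, or 1.11 ± 0.11 in log2 units (SE, n = 3 each; adjusted p = 9.74e-05 by limma).

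**Figure D1:**
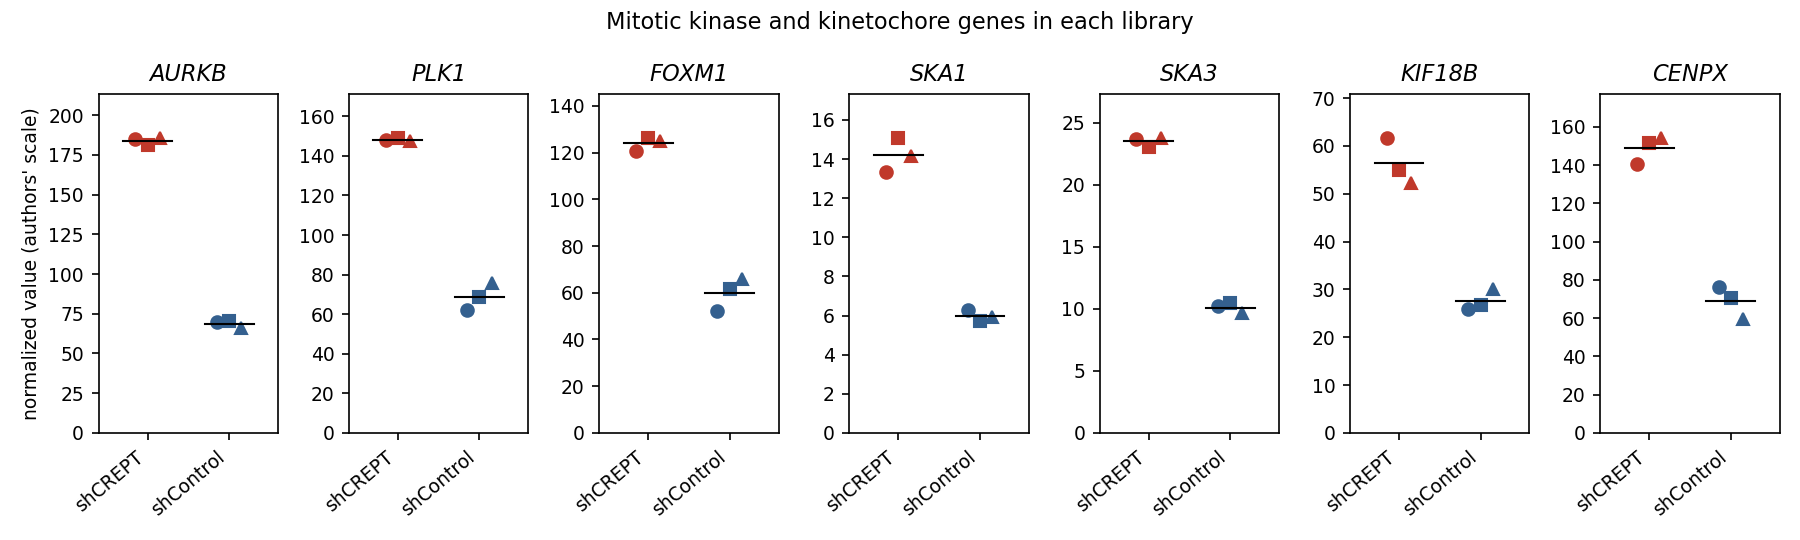
Normalized value (vertical axes from 0, the authors' scale, a separate axis for each gene) of the 7 genes in each library; circles, squares and triangles are replicates 1, 2 and 3, red for shCREPT and blue for shControl, and black lines are group means. In every panel the 3 shCREPT points lie above the 3 shControl points, and the spread of PLK1, FOXM1 and CENPX is wider in shControl.

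The libraries did not order the 7 genes in 1 way. In shControl, replicate 3 held the highest PLK1, FOXM1 and KIF18B and the lowest AURKB, SKA3 and CENPX. In that library CENPX deviated from its group mean by -13.7% and PLK1 by 9.89%. In shCREPT, replicate 1 held the highest KIF18B and the lowest FOXM1, SKA1 and CENPX. Separate cultures are not mentioned in the labels, and each p-value therefore reflects library-to-library spread that could be technical.

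Differences between genes within a library nearly cancel a common factor on that library, and they were compared for 4 pairs. The log2(value + 1) of AURKB less that of PLK1 was 0.32, 0.28 and 0.33 in shCREPT libraries, against 0.16, 0.04 and -0.19 in shControl libraries. AURKB thus rose more than PLK1 by 0.31 ± 0.10 on the log2 scale (SE), with no overlap between groups. AURKB rose more than FOXM1 by 0.37 ± 0.12, again with no overlap. Both had an exact two-sided permutation p of 0.1, the smallest that 3 against 3 libraries can give, and an adjusted p of 0.2 over the 4 pairs, so neither passed. Quantile normalization, which is no common factor, lowered these differences to 0.19 and 0.23. PLK1 and FOXM1 differed in their change by 0.06 ± 0.03 (exact permutation p = 0.3), and SKA1 and SKA3 by -0.02 ± 0.08 (exact permutation p = 0.9). The levels of different genes were not compared, since the scale of the values is not stated to be per length.

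The rise of the 7 was not large for the table. Their log2 changes ran from 1.01 to 1.41 with a median of 1.11, and the median over all tested genes called higher was also 1.11. Over all 1184 tested genes the median was -0.76. In the authors' deposited table the median log2 fold of the genes marked up was 1.51, and all 7 lay below it, at 1.01 to 1.41. AURKB ranked 379 of 657 there, and the other 6 ranked from 440 (SKA3) to 642 (KIF18B).

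**Figure D2:**
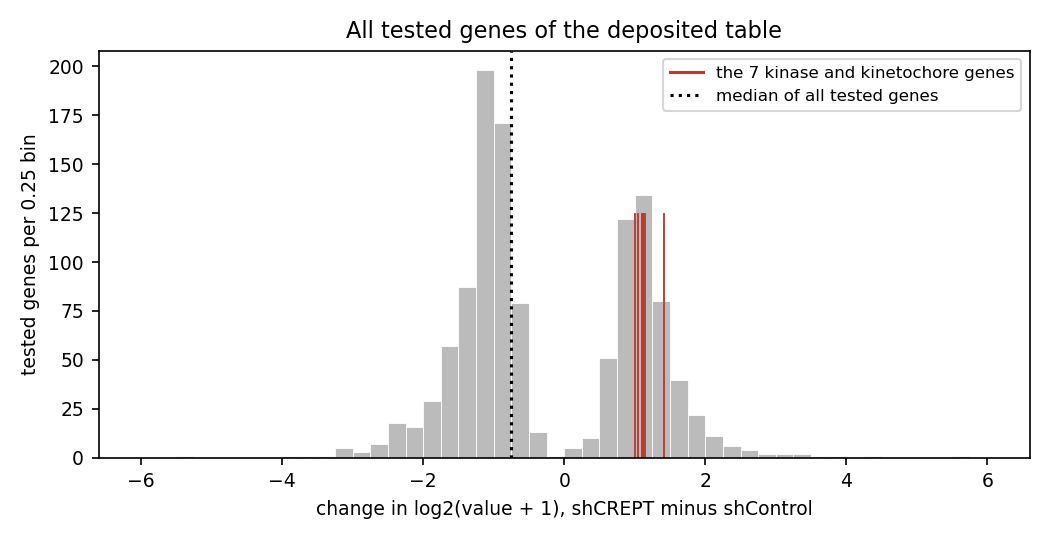
Number of tested genes (vertical axis) by change in log2(value + 1), shCREPT minus shControl (horizontal axis, bins of 0.25); red lines mark the 7 genes and the dotted line the median of all tested genes at -0.76. The 7 lines stand in the middle of the right-hand peak, and the gap around 0 comes with a table that lists only selected genes.

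Scaling moved the size of the rise and not its direction. The median-of-ratios factors come here from selected genes, more of which fell than rose. The lift of shCREPT values that they give cannot turn a rise into a fall, so the direction was not checked by it. Median-of-ratios rescaling over the tested genes, which lifts shCREPT values relative to shControl by 0.89 in log2 units, gave the 7 genes changes of 1.87 to 2.28. It moved the median of all tested genes to -0.12 and the calls from 481 higher and 678 lower to 492 higher and 371 lower. Quantile normalization gave the 7 genes 1.17 to 1.48.

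Around these 7, mitotic genes were looked up by role in 11 lists that hold 159 genes in all. Of these, 16 had a row, the 7 and 9 others, and all 16 rose without overlap of the groups, where 40.2% of all tested genes did not overlap in that direction and 96.8% in either. Their median log2 change was 1.10, and that of the 9 others alone was 1.04. The median was -0.76 over all tested genes and 1.11 over those called higher. Rows were selected for this contrast and the lists were chosen with earlier results known, so the count of 16 is no separate finding. The other 143 have no row. The lists are not complete. CCNB3, a B-type cyclin outside them and named after its value was seen, has a row. Its change was 0.125 in log2 units and was not called (limma adjusted p = 0.714).

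Among the kinases and their activators, 5 of 18 had a row and all 5 rose. HASPIN, the histone kinase that recruits Aurora B to centromeres, averaged 18.2 ± 0.602 in shCREPT cells and 6.47 ± 0.931 in shControl cells, a 2.82-fold rise (SD, n = 3 each; limma adjusted p = 3.63e-05). MASTL, the Greatwall kinase that holds back a phosphatase opposing mitosis, averaged 26.3 ± 2.79 in shCREPT cells and 13.0 ± 0.448 in shControl cells. PKMYT1, which inhibits CDK1 and so delays mitotic entry, had 54.11, 44.01 and 39.22 in shCREPT cells, against 21.21, 14.04 and 21.71 in shControl cells. Its coefficient of variation of 16.6% in shCREPT and 22.6% in shControl was the largest of the 16 genes.

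The cyclin and phosphatase list had 2 of 9 genes with a row. CDC25A, a phosphatase that activates cyclin-dependent kinases, averaged 23.2 ± 1.49 in shCREPT cells and 7.69 ± 0.137 in shControl cells, a 3.02-fold rise, and its log2 change of 1.48 ± 0.08 was the largest of the 16 (SE, n = 3 each; limma adjusted p = 1.11e-05). CCNA2, cyclin A, rose 2.02-fold. Of 19 genes of the spindle checkpoint and the anaphase-promoting complex, the separase gene ESPL1 alone had a row and rose 2.10-fold, to 30.3 ± 1.55 in shCREPT cells against 14.4 ± 1.62 in shControl cells (SD, n = 3 each).

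Of 25 regulators around FOXM1 and MuvB, 4 had a row and rose. FOXM1 stands above, and MYBL2, the Myb factor that binds MuvB ahead of FOXM1, rose 2.17-fold, to 104 ± 7.42 in shCREPT cells against 48.1 ± 3.26 in shControl cells (SD, n = 3 each; limma adjusted p = 4.56e-05). The factors E2F1 and E2F7, an activator and a repressor of cell cycle genes, rose 2.11-fold and 2.19-fold. The lists of condensin and cohesin (15 genes) and of cytokinesis and the midzone (13 genes) had no row.

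The kinetochore lists held few rows beside the genes already described. Of 25 inner kinetochore genes CENPX alone had a row, of 12 outer kinetochore genes SKA1 and SKA3, of 14 mitotic kinesins KIF18B, of 6 chromosomal passenger genes AURKB, and of 13 Fanconi core genes CENPX. The read-through gene CENPS-CORT, named after its values were seen, does have a row and shares sequence with CENPS, the partner of CENPX. CENPS-CORT was at 5.95, 6.28 and 8.71 in shCREPT cells, against 1.88, 0.81 and 6.38 in shControl cells, and the groups overlapped. Its adjusted p of 0.0447 (limma) became 0.0741 to 0.12 without shCREPT replicate 1, 2 or 3 or shControl replicate 1 or 2. Without shControl replicate 3 it was 0.000951. The call was also lost with a pseudocount of 0.1 (limma adjusted p = 0.0651) and with no filter (0.0502). A pseudocount of 5, both rescalings, the trend and robust options and the replicate block kept it, at 0.00723 to 0.0378.

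**Figure D3:**
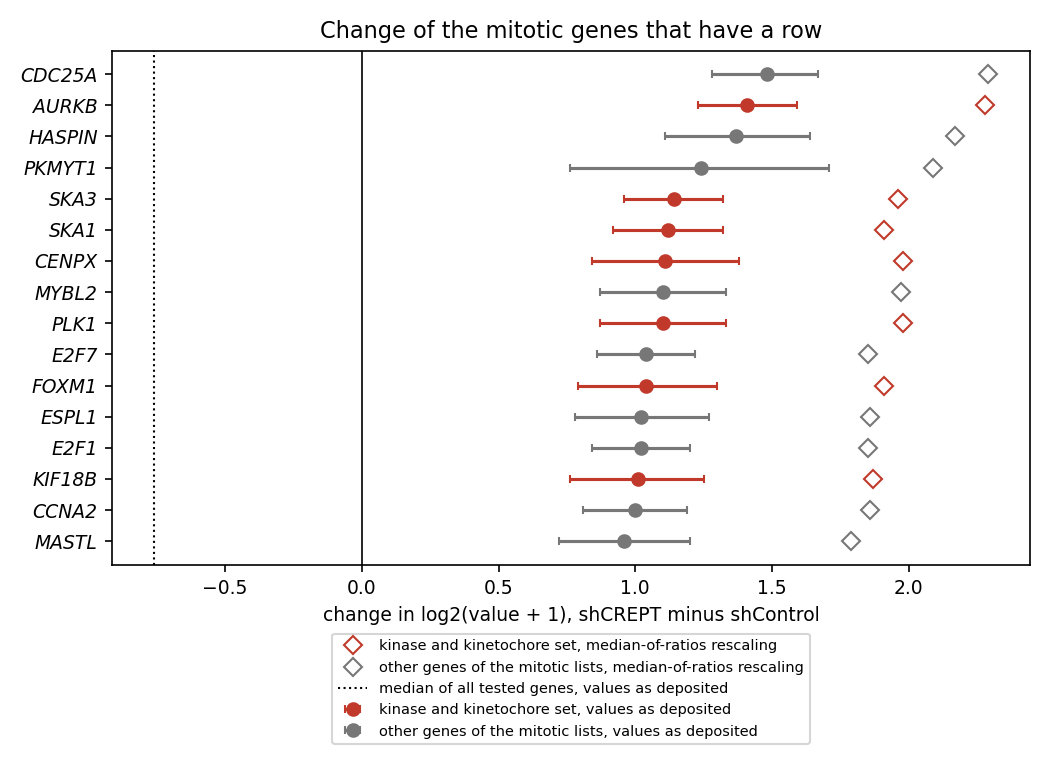
Change in log2(value + 1), shCREPT minus shControl (horizontal axis), of the 16 genes of the mitotic lists with a row. Filled circles with bars are limma estimates with 95% confidence intervals, and open diamonds are the estimates after median-of-ratios rescaling. Red marks the 7 kinase and kinetochore genes and grey the 9 others. The filled circles lie between 0.96 (MASTL) and 1.48 (CDC25A), all above 0, and the diamonds lie between 1.79 and 2.29.

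By profile over the 6 libraries, the tested genes nearest to the mean of the 7 were KLHL29, ELFN2, HLA-C, DHX33 and SPAG5, with root mean square differences of 0.0217 to 0.0341 on the log2(value + 1) scale after each gene was set to its own mean. SPAG5 encodes astrin, a protein of the spindle and kinetochore, and had 103.46, 105.61 and 105.75 in shCREPT cells, against 45.55, 49.28 and 50.12 in shControl cells. HLA-C encodes an antigen-presenting molecule and DHX33 an RNA helicase. The 7 genes themselves lay 0.0405 (SKA3) to 0.142 (AURKB) from their mean, and 123 other tested genes lay no farther than AURKB. With 2 groups that hardly overlap in any listed gene, this measure mostly compares the size of the change.

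On GRCh38 with the GENCODE v29 annotation, the 7 protein-coding genes lie on chromosomes 12, 13, 16, 17 and 18. FOXM1 spans 2857681 to 2877155 on chromosome 12, SKA3 21153595 to 21176602 on chromosome 13, PLK1 23677656 to 23690367 on chromosome 16 and SKA1 50374995 to 50394173 on chromosome 18. AURKB (8204733 to 8210600), KIF18B (44924709 to 44947711) and CENPX (82018702 to 82024107) are on chromosome 17, far from one another. On the opposite strand, FOXM1 shares 781 exonic bases with ITFG2, PLK1 shares 553 with the antisense gene AC008870.3 and 42 with ERN2, and CENPX shares 43 with LRRC45. None of these partners has a row, and no source used here says whether the counting used strand.

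Of 20 overlapping or nearest coding genes of the 7, only the 2 flanking KIF18B have a row, and both fell. GFAP, the astrocyte filament gene, lies 7771 bases from KIF18B and had 43.12, 43.52 and 49.81 in shCREPT cells, against 421.04, 447.81 and 432.08 in shControl cells. C1QL1, a secreted complement-related protein gene, lies 11981 bases away on the other side and had 29.78, 24.14 and 20.69 in shCREPT cells, against 60.65, 55.88 and 63.16 in shControl cells. KIF18B thus rose between neighbours whose log2 changes were -3.23 ± 0.09 and -1.25 ± 0.14 (SE, n = 3 each; limma adjusted p = 1.53e-06 and 0.000153). After median-of-ratios rescaling the change of C1QL1 was -0.39 (limma adjusted p = 0.0402) and that of GFAP -2.35. All 3 genes lie on the same strand and share no exonic base.

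**Figure D4:**
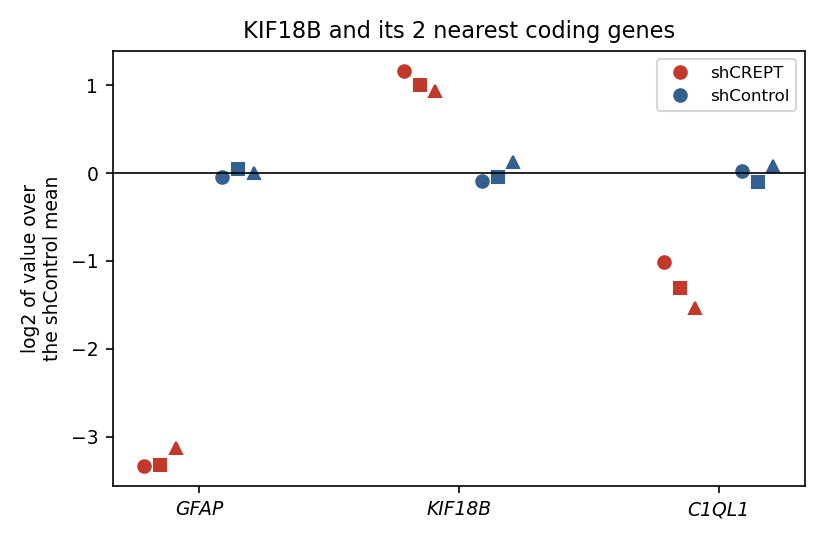
Log2 of each value over the gene's shControl mean (vertical axis) for KIF18B and its nearest coding genes in chromosome order; circles, squares and triangles are replicates 1, 2 and 3, red for shCREPT and blue for shControl. The shCREPT points of KIF18B lie above 0 and those of GFAP and C1QL1 below it, with no overlap with shControl in any of the 3.

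The sequence before the start site is shown for 4 of the 7 genes. Promoters of mitotic genes often carry a cell cycle homology region (CHR, searched as TTTGAA), which binds MuvB, downstream of CCAAT boxes, which bind NF-Y. Windows from 250 bases before to 50 bases after the start were taken from RefSeq on GRCh38.p14, where 6 of the 7 genes matched, all but FOXM1. They were searched on both strands for TTTGAA and for the box CCAAT. Also searched were the E2F letters TTTCGCGC and their variant TTTGGCGC, and for forkhead factors the letters TGTTTA. No TTTGAA match shared a base with a CCAAT match.

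TTTGAA was found in 4 of the 6 genes, in PLK1, KIF18B, SKA3 and SKA1. It was found in 15.2% of all 35116 RefSeq windows. The 387 matched genes marked up include these 6, and 58 of the 387 held TTTGAA. Of the 583 marked down, 101 held it, or 17.3%. CCAAT was found in 4 of the 6, in PLK1, KIF18B, CENPX and AURKB, against 34.6% of all windows, 43.4% of the genes marked up and 44.3% of those marked down. Neither form of the E2F letters nor the forkhead letters were found in the 6. Of all windows, 0.515% held TTTCGCGC, 0.652% TTTGGCGC and 12.3% TGTTTA. These are matches of letters in a window and not shown sites, and no set of 6 was tested.

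PLK1, KIF18B and SKA3 are printed because their TTTGAA lies near the RefSeq start, and CENPX because its CCAAT letters recur. Each reads 5′ to 3′ on the gene's strand, and capitals mark TTTGAA or CCAAT, or their reverse complements TTCAAA and ATTGG. PLK1 is chr16:23678789-23678898 on the plus strand, KIF18B chr17:44947764-44947873, SKA3 chr13:21176543-21176652 and CENPX chr17:82022879-82023128 on the minus strand. The first 3 end at base 10 of the transcript and CENPX ends at the base before its start.
PLK1: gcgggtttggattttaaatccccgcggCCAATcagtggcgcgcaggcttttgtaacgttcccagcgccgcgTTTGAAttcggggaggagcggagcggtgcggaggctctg
KIF18B: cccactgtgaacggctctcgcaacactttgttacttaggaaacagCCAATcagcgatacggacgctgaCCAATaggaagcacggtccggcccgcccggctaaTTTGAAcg
SKA3: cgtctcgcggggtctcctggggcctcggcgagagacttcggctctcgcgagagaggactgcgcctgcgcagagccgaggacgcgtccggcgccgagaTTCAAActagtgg
CENPX: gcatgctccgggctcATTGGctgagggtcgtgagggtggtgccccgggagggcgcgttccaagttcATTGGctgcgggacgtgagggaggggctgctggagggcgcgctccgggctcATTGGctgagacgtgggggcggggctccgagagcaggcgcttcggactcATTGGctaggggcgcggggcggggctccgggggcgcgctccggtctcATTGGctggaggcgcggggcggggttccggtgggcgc

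In PLK1 the CCAAT begins at base -73 and TTTGAA at base -29, counted from the RefSeq start with no base 0. KIF18B has CCAAT at -55 and -32 and TTTGAA at base 3 of the RefSeq transcript. In SKA3 the letters are on the other strand and span the start, from -3 to 3, with no CCAAT in the window. SKA1, not printed, has TTTGAA at base 35 of its transcript.

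The CENPX window holds ATTGG 5 times, at -235, -184, -133, -84 and -37, so that each copy begins 47 to 51 bases from the next. The 4 copies at -235, -133, -84 and -37 read ctcATTGGct and the one at -184 reads ttcATTGGct. At least 5 CCAAT matches were found in 126 of the 35116 windows, or 0.359%. GENCODE v29 puts the outermost start of CENPX at 82024107 and that of PLK1 at 23677656, both upstream of the printed windows, so parts of these windows can lie inside longer transcripts. The SKA3 window also holds the GENCODE start at 21176602. For KIF18B the outermost GENCODE start is 44947711. By that annotation its whole printed window, with its TTTGAA, lies upstream of the gene and not in the transcript.

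**Figure D5:**
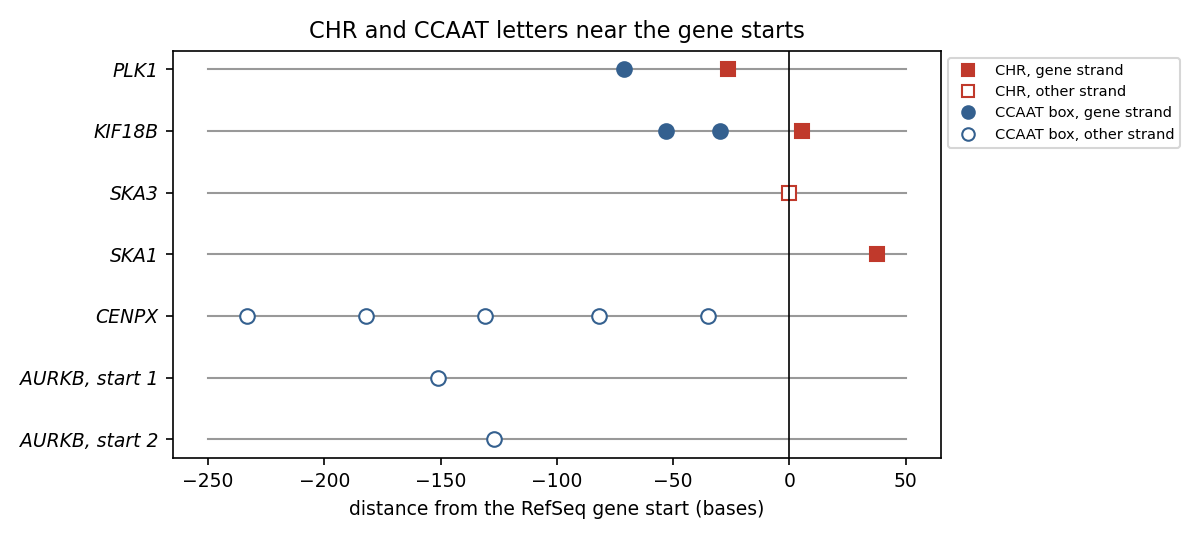
Places of TTTGAA (CHR, squares) and CCAAT (circles) letters in 7 RefSeq windows of 6 genes, by distance from the gene start in bases (horizontal axis); filled marks are on the gene's strand and open marks on the other strand, and AURKB has 2 annotated starts. Squares appear in PLK1, KIF18B, SKA3 and SKA1 only, and CENPX shows 5 open circles at nearly even spacing.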

How the data were processed

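U87MG RNA was sequenced in 6 libraries, 3 shCREPT and 3 shControl, grouped by the labels. HISAT2, HTSeq and GRCh38 are named, without role or version, per the submitters' processing notes. The deposited per-library values are a signal normalized by the authors, written with 2 decimals; their scale and normalization are not given in the sources used here. Low values took 28 to 29 of the possible hundredths up to 0.29, so no step of 1 read was seen and depth is unknown. The authors' own comparison is deposited beside them: a fold (ratio), a log2 fold, and p-values before and after adjustment.

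Values were taken as log2(value + 1). Genes reaching 1 in 3 or more libraries (1184, including all 7; 446 did not) entered a two-sided limma 3.58.1 fit (R 4.3.3) with Benjamini-Hochberg adjustment over all tested genes and a threshold of 0.05. Pair differences used exact permutation in scipy 1.17.1; Python 3.11.15, pandas 2.3.3 and matplotlib 3.10.9 did the rest. Between any pair of libraries 96.0% or more of the genes differed, so no column is a copy of another. GENCODE v29 matched 1549 of 1630 identifiers. Genes were named by a rule: the 7, listed genes with a row, the 5 nearest profiles and neighbours with a row. CCNB3, CENPS-CORT, TUBG1, KIF21B, KIF6 and KIFAP3 were added after their values were seen. The genes and lists were chosen with earlier results of these data known. Alternatives were pseudocounts of 0.1 and 5, no filter or a minimum of 10, 2 rescalings, trend and robust options, a replicate block and each library left out.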

Additional observations from a re-analysis of the deposited data

How the results depend on the processing

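The 7 genes kept their direction and their call under all 14 alternatives. Their log2 changes were 0.81 to 2.28, with a highest adjusted p of 0.00124 (limma). The rows were selected for this contrast and 97.9% of all tested genes were called, so this outcome follows largely from the choice of rows. Changing the filter, the trend and robust options and the replicate block cannot move the log2 change itself. With any 1 library removed the log2 changes of the 7 were 0.94 to 1.43. A pseudocount of 5 gave 0.81 to 1.36. Counts over the table moved more: a minimum of 10 left 214 higher and 271 lower, since fewer genes are tested, and median-of-ratios rescaling, which lifts shCREPT values by construction, called 371 lower. Without 1 library the counts were 475 to 481 higher and 662 to 672 lower. The difference in change between SKA1 and SKA3 turned to 0.02 with a pseudocount of 0.1, was -0.11 ± 0.06 (SE) with a pseudocount of 5 and ran from -0.08 to 0.03 with 1 library left out, so no order of these subunits is given. The differences of AURKB from PLK1 and from FOXM1 stayed positive, at 0.19 to 0.39 and 0.23 to 0.47, lowest with quantile normalization. With the replicate block, the 7 genes were called at adjusted p of 0.000403 to 0.00124 (limma) and the table gave 479 higher and 677 lower. Libraries with the same number showed no shared deviation (Pearson's r across genes of -0.109, 0.018 and -0.179), so the numbers were not taken as pairs. With depth unknown, no counting limit can be given.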

Other observations

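Some further spindle and kinesin genes of the table were named after their values were seen, without a rule. They are not a full list, as KLC2 and WDR62, for example, also have a row. Groups failed to overlap in 96.8% of all tested genes in either direction, and in 40.2% as higher. TUBG1, the gamma-tubulin that nucleates spindle microtubules, had 246.26, 235.97 and 232.33 in shCREPT cells, against 94.51, 99.11 and 107.73 in shControl cells, a 2.37-fold rise with no overlap (limma adjusted p = 1.98e-05). KIF21B, a kinesin of transport and microtubule dynamics, averaged 1.95 ± 0.0651 in shCREPT cells and 0.877 ± 0.0416 in shControl cells (SD, n = 3 each). KIF6, another kinesin, had 2.61, 3.03 and 1.75 in shCREPT cells, against 0.62, 0.4 and 1.02 in shControl cells, a 3.62-fold rise at low values with no overlap (limma adjusted p = 0.00161). KIFAP3, an adaptor of the kinesin that serves cilia and transport, fell to 28.3, 29.59 and 31.54 in shCREPT cells, against 65.57, 64.86 and 58.81 in shControl cells, or -1.06 ± 0.09 in log2 units (SE; adjusted p = 3.84e-05 by limma). After median-of-ratios rescaling the KIFAP3 change was -0.19 (limma adjusted p = 0.0918), and its call was lost.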
